A study of Mus musculus with 20 samples.

Results

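The Slc25 family, the carriers that move metabolites across the inner membrane of the mitochondrion, was followed in mouse kidney through ischemia/reperfusion injury (IRI), ischemic pre-conditioning (IPC) and Hemin treatment. Members were chosen by name alone, as all non-control spots whose gene name begins with Slc25a and a digit, which gave 42 of 27827 gene names and 73 of 41174 probes. The kidneys came from C57BL/6 mice aged 8 to 12 weeks, and 4 arrays were hybridised per group, 20 in all. By the labels, Control mice had neither surgery nor a protective treatment. IRI mice had both renal pedicles closed for 45 min and were killed 6 h after reperfusion. IPC+IRI mice had a first ischemia of 15 min and then, after 7 days, the same 45 min of ischemia and 6 h of reperfusion. IRI+Hemin mice received Hemin, an inducer of heme oxygenase 1, at 25 mg/kg i.p. 24 h before that ischemia, and Hemin mice received the same dose without ischemia. No group labelled as sham-operated is among these arrays, so by the labels IRI differs from Control by anesthesia and laparotomy too. Whole kidney was profiled, so that fewer cells of a type and less RNA per cell cannot be told apart.

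Most Slc25 carriers exchange one metabolite for another, and they decide which substrates reach the matrix enzymes. The adenine nucleotide translocases and the phosphate carrier feed ATP synthase, the aspartate/glutamate and oxoglutarate carriers form the malate-aspartate shuttle, and others carry citrate, carnitine esters, iron, glutathione, nucleotides and vitamin-derived cofactors. The proximal tubule, the main mass of the kidney cortex, lives on mitochondrial ATP and is the segment best known for injury by ischemia.

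Expression is given as the log2 of a spot's processed signal over the 75th percentile of its array, so that 0 marks the 75th percentile and a step of 1 is a doubling of signal. Where a name had several probes their signals were averaged first. Levels of different members are not compared, since each probe has its own brightness. A gene was tested where it was well above background on 3 or more arrays of 1 of the groups compared, and it was called at an adjusted p below 0.05 (limma, 20 arrays, Benjamini-Hochberg over all genes tested). Of the 42 members, 39 were tested against Control and 38 against IRI. Slc25a31 and Slc25a41 were above background on no array and Slc25a43 on 5 of 20, and none of them was tested. Slc25a18, a glutamate carrier, was tested against Control only. No spot of a member was removed or saturated.

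The 4 arrays of each group shared 1 slide that held no other group, hence slide and group cannot be told apart. The files give 3 scan days, the first for Control and IRI, the next for IRI+Hemin alone and the last for both IPC+IRI and Hemin. Of the 5 comparisons below, IRI versus Control alone lies within a scan day. The 75th percentile ranged from 147 to 358 intensity units over the arrays. Of the markers of the labelled tissue, all 10 proximal tubule genes (such as Lrp2 and Slc34a1), 6 genes of the thick limb and collecting duct and 3 of podocytes were above background on 20 of 20 arrays. Leukocyte markers, 8 genes in all, had a summed signal of 1.74 to 2.17 times the 75th percentile in Control, 5.11 to 10.05 in IRI, 3.93 to 11.7 in IRI+Hemin, 7.66 to 21.4 in IPC+IRI and 1.89 to 2.94 in Hemin. Single leukocyte genes went both ways, with 3 called higher and 1 lower of 7 tested in IRI versus Control (log2 fold changes of -1.0 to 4.05, median 0.30), 4 and 1 of 8 in IPC+IRI versus Control, 1 and 1 in IPC+IRI versus IRI and 0 and 1 in each of the others. The proximal tubule sum was 622 to 719 in Control, 481 to 696 in IRI, 439 to 585 in IRI+Hemin (below every Control array), 518 to 657 in IPC+IRI and 612 to 646 in Hemin. Of its 10 genes, 0 were called higher and 3 lower in IRI versus Control, 1 and 4 in IPC+IRI versus Control, 3 and 3 in IPC+IRI versus IRI, 4 and 2 in IRI+Hemin versus IRI and 1 and 2 in Hemin versus Control. Fat markers, 5 of 6 listed being on the array, summed to 3.82 to 81.7 in Control, 7.34 to 57.9 in IRI, 13.7 to 49.1 in IRI+Hemin, 4.92 to 22.6 in IPC+IRI and 5.89 to 25.3 in Hemin, and 0 were called in any comparison. Endothelial markers (3 genes) summed to 2.13 to 3.08, 3.19 to 4.15, 2.36 to 3.46, 1.39 to 3.04 and 1.79 to 2.39 in the same order, and 1 of them was called higher and 1 lower in IRI versus Control and in IRI+Hemin versus IRI. Against IRI, IPC+IRI had 0 higher and 2 of 3 lower (median -1.16), with sums that did not overlap, and in the other comparisons 0 were called. Podocyte markers (3 genes) summed to 2.12 to 3.76 in Control, 1.62 to 2.38 in IRI, 1.47 to 2.25 in IRI+Hemin, 1.30 to 1.82 in IPC+IRI and 2.11 to 2.71 in Hemin. The podocyte sums of IPC+IRI lay below all of Control, with 2 of 3 genes called lower, 1 of 3 was called lower in IRI versus Control and 0 were called in the others. Thick limb and collecting duct markers summed to 246 to 312 in Control, 261 to 312 in IRI, 253 to 401 in IRI+Hemin, 276 to 389 in IPC+IRI and 246 to 292 in Hemin. Of these 6 genes, 1 was called higher and 0 lower in IRI versus Control, 3 and 0 in IPC+IRI versus Control, 1 and 1 in IRI+Hemin versus IRI and 0 in the others. The part of these cell types in the values of the carriers was not tested.

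The probes that carry the main results are shown by the first 30 of their 60 bases, 5′ to 3′, with positions on mm9 from the array annotation. The first 7 belong to members that rose in IRI, and the pair for Slc25a33 lies far apart on the gene. The next 3 belong to members that were lower on every array of the later scan days. The last 2 are the probes of Slc25a35, which disagreed.
Slc25a33, chr4:149118713-149118772 (- strand): agtgttcaaaactgaaacagtgaaggccat
Slc25a33, chr4:149123432-149126565 (- strand): accttaatgaatcctatttggatggttaaa
Slc25a22, chr7:148616089-148616148 (- strand): caataatttagttctccagcttggtgactc
Slc25a24, chr3:108971266-108971325 (+ strand): catcttgtatcttttttggggaaaaaaccc
Slc25a25, chr2:32270275-32270334 (- strand): gaggatttctttattttgccctttggaacg
Slc25a32, chr15:38926713-38926772 (- strand): ctcatcagaaatgctggctcatgtttcaca
Slc25a30, chr14:76161882-76161941 (- strand): ttcacttacagtaagactcgacctttgtga
Slc25a23, chr17:57183867-57183926 (- strand): tataccccaaatgtcactccccaagtctag
Slc25a16, chr10:62408580-62408639 (+ strand): cttggtatgtactaggaaatgtaaatggac
Slc25a1, chr16:17925603-17925662 (- strand): tccatgtgcttgcttgtgagccacatgcct
Slc25a35, chr11:68785799-68785858 (+ strand): cacaaatcccccgatatatttcatacccat
Slc25a35, chr11:68787730-68787789 (+ strand): aagattcagacctcaagccttgatacctaa

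In IRI versus Control, 7 of 39 members were called higher (17.9%, against 17% of all 17712 genes tested) and 14 lower (35.9%, against 33.7%). The share of carriers called was therefore close to that of all genes in both directions. The median log2 fold change was -0.01 over members and -0.17 over all genes. In 5 members the 4 IRI arrays lay above all 4 Control arrays and in 11 below them, against 14.8% and 31.3% of all genes. The 7 rises ran from 0.28 (Slc25a28) to 2.31 (Slc25a33) on the log2 scale, with those of Slc25a33, Slc25a22, Slc25a24, Slc25a25, Slc25a30 and Slc25a32 at 1.16 or more, and the 14 falls from -0.33 to -1.20. Of the falls 2, those of Slc25a18 and Slc25a34, were tested through Control alone, the members being above background on fewer than 3 IRI arrays, so that the filter favoured a fall. Without scaling between arrays the calls were 6 higher and 5 lower (all genes, 10.9% and 18.9%). By substrate, carriers of nucleotides and cofactors had 2 higher and 3 lower of 8, those of amino acids 1 higher and 4 lower of 9, the ATP-Mg/phosphate group 2 higher and 0 lower of 3, the UCP-like group 1 higher and 2 lower of 3 and carriers of di- and tricarboxylates and oxoacids 0 higher and 1 lower of 4.

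Slc25a33, the pyrimidine nucleotide carrier that supplies the matrix with precursors of mitochondrial RNA and DNA, rose most. Its level was 0.30, 0.70, 0.88 and 1.01 on the Control arrays and 2.71, 2.79, 3.27 and 3.37 on the IRI arrays, values being listed from low to high here and below (log2 fold change 2.31 ± 0.18 (SE), adjusted p = 4.0e-08, a 4.95-fold rise). The groups were well apart. The IRI+Hemin arrays read 2.89, 2.95, 3.12 and 3.34 and the IPC+IRI arrays 3.11, 3.24, 3.41 and 3.71, while the Hemin arrays, at 0.92, 1.01, 1.09 and 1.35, stayed near Control. Both of its probes were higher in IRI, by 2.18 and 2.35. IPC+IRI kidneys were likewise higher than Control (2.64, adjusted p = 1.3e-08). Against IRI, neither IPC+IRI (0.33, adjusted p = 0.15, 95% interval -0.06 to 0.73) nor IRI+Hemin (0.04, adjusted p = 0.87, interval -0.35 to 0.43) passed the test. Hemin versus Control gave 0.37, adjusted p = 0.13.

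Slc25a22, a glutamate carrier of the inner membrane, followed the same course. Control arrays held -0.99, -0.49, -0.38 and -0.10 and IRI arrays 1.02, 1.71, 1.74 and 2.55 (log2 fold change 2.25 ± 0.36 (SE), adjusted p = 6.6e-05). The ischemic arrays of the other slides spread more widely, with 0.37, 1.26, 1.68 and 1.74 in IRI+Hemin and 0.18, 0.86, 1.37 and 1.89 in IPC+IRI. All 12 ischemic arrays still lay above the 8 others, the Hemin arrays being lowest at -1.37, -1.36, -1.14 and -1.03. IPC+IRI exceeded Control (1.57, adjusted p = 0.0013), and neither pre-treated group differed from IRI beyond the spread (-0.68, adjusted p = 0.14 for IPC+IRI, interval -1.45 to 0.09, and -0.95, adjusted p = 0.044 without IPC+IRI replicate 4; -0.49, adjusted p = 0.29 for IRI+Hemin, interval -1.26 to 0.28). In Hemin versus Control the arrays did not overlap, but the fit gave -0.74, adjusted p = 0.12. The other glutamate carrier, Slc25a18, had the opposite direction. It read -3.85, -3.78, -3.32 and -3.04 in Control and -5.26, -4.69, -4.65 and -4.17 in IRI, where 1 of 4 arrays was above background, as in IPC+IRI. It thus entered both comparisons through Control alone, and its differences of -1.20 in IRI and -1.55 in IPC+IRI are taken largely against background and given as a description. With normexp background correction of the mean signal they were 0.018 and -0.48.

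The ATP-Mg/phosphate carriers, which load or unload matrix adenine nucleotides under the control of cytosolic calcium, split by member. Slc25a24 rose from -3.04, -2.86, -2.78 and -2.37 to -1.17, -0.68, -0.48 and -0.43 (log2 fold change 2.07 ± 0.27 (SE), adjusted p = 7.2e-06). IRI+Hemin and IPC+IRI arrays gave -1.02, -0.39, -0.30 and 0.12, and -1.17, -0.15, -0.12 and -0.08. In the log2 values deposited with the series, of which 18.1% are blank, its difference in IRI was 0.24, adjusted p = 0.82, and in IPC+IRI 0.75, adjusted p = 0.44. Those are log2 values of the same processed signals, averaged over the probes not blank on each array. The probes averaged can thus differ between arrays, and the cause of the gap was not tested. A single IPC+IRI array sat about 1 unit below the other 3, and IPC+IRI versus Control was called with it included (2.38, adjusted p = 1.7e-06). Hemin arrays were at -2.59, -2.17, -1.99 and -1.90, for which the fit against Control gave 0.60, adjusted p = 0.087 (0.73, adjusted p = 0.049 without Control replicate 2). Of its probes 1 was above background on all 20 arrays and the other on 9, and they were higher in IRI by 2.08 and 2.11.

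Slc25a25 rose from 1.06, 1.54, 1.85 and 2.98 to 2.89, 3.45, 3.48 and 3.87 (log2 fold change 1.56 ± 0.35 (SE), adjusted p = 0.0012). Control and IRI overlapped through the highest Control array. All 3 of its probes were higher in IRI, by 1.56, 1.56 and 1.70. Levels were 3.14, 3.57, 3.76 and 4.17 in IRI+Hemin, 2.78, 2.94, 3.58 and 3.73 in IPC+IRI and 0.67, 1.00, 1.28 and 1.59 in Hemin. IPC+IRI was higher than Control (1.40, adjusted p = 0.0024), and the comparisons with IRI as reference did not pass (-0.17, adjusted p = 0.72 and 0.24, adjusted p = 0.60). The third tested carrier of the subgroup, Slc25a23, did not rise in IRI (-0.43, adjusted p = 0.21) and is described with the scan days. Without Control replicate 2 it was called lower there (-0.76, adjusted p = 0.014).

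Slc25a32, which carries folate and FAD, was singled out after its values were seen, as the one member called in all 5 comparisons. The IRI arrays read 0.45, 0.50, 0.51 and 0.57 against -0.71, -0.71, -0.67 and -0.53 in Control (log2 fold change 1.16 ± 0.10 (SE), adjusted p = 1.5e-07). Its IRI and Control arrays were each closely grouped and far apart from each other. IRI+Hemin arrays fell between, at -0.43, -0.22, -0.12 and -0.09, as did IPC+IRI arrays at -0.52, -0.45, -0.22 and -0.07. Both pre-treated groups were lower than IRI (-0.72, adjusted p = 4.8e-05 and -0.82, adjusted p = 1.8e-05), while IPC+IRI stayed above Control (0.34, adjusted p = 0.0098). Hemin alone was the lowest, at -1.01, -1.0, -0.93 and -0.92 (-0.31, adjusted p = 0.028), a call lost without Control replicates 1 or 3 or Hemin replicates 2 or 3 (adjusted p from 0.051 to 0.089), and without scaling the difference was 0.26.

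Slc25a30, a UCP-like carrier named for its abundance in kidney mitochondria, rose in IRI, and both pre-treated groups were lower than IRI. The Control arrays held 0.79, 1.22, 1.29 and 1.32 and the IRI arrays 2.11, 2.12, 2.46 and 2.70 (log2 fold change 1.19 ± 0.20 (SE), adjusted p = 1.2e-04). In IPC+IRI the level was 0.84, 0.96, 0.97 and 1.27, within the range of Control (-0.14, adjusted p = 0.57, interval -0.58 to 0.29). IRI+Hemin arrays fell in a lower and a higher pair, 0.79, 0.82, 1.55 and 1.78. Hemin arrays were lowest, at -0.11, -0.09, 0.07 and 0.14. The differences from IRI were -1.34 for IPC+IRI (adjusted p = 8.6e-05) and -1.11 for IRI+Hemin (adjusted p = 3.7e-04), and Hemin differed from Control by -1.15 (adjusted p = 5.3e-04). All 3 probes of Slc25a30 had the same sign in each of the 4 comparisons where it was called. They read -0.86, -1.47 and -1.0 in IRI+Hemin versus IRI.

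**Figure D1:**
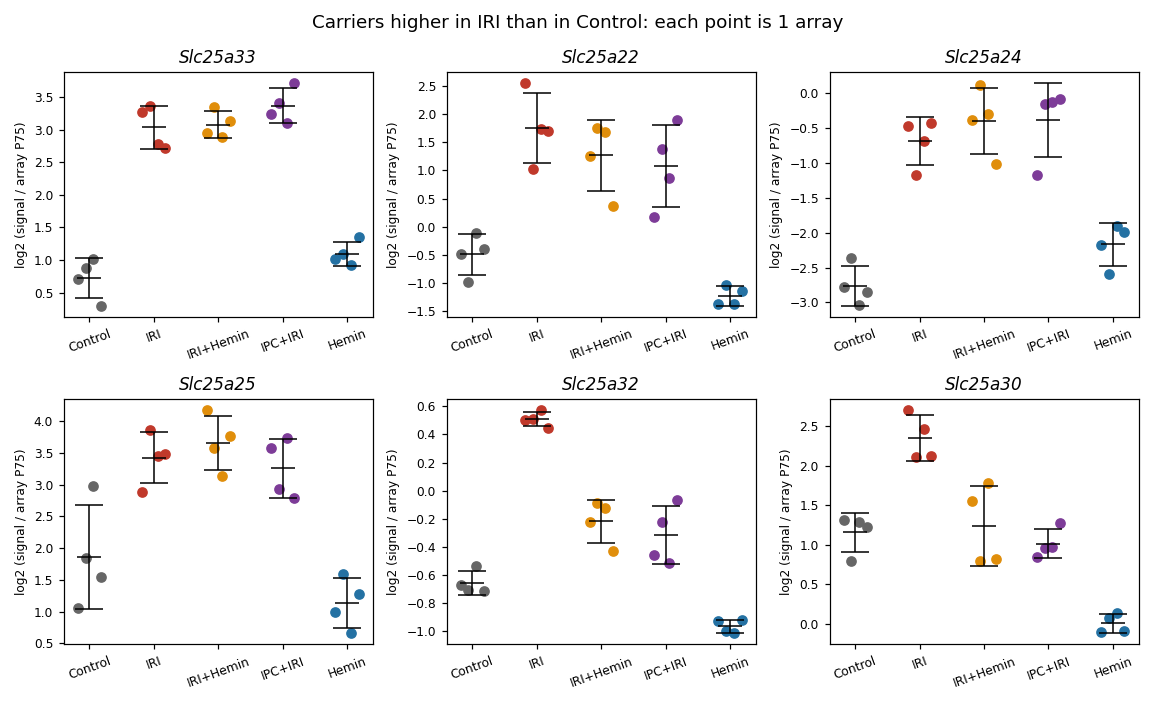
Log2 level of 6 carriers on each array, by group, with the group mean and SD (n = 4) as bars. Slc25a33, Slc25a22, Slc25a24 and Slc25a32 lie higher on all 12 ischemic arrays than on the 8 others, while Slc25a30 is high in IRI and not in IPC+IRI.

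Over the 20 arrays, 4 members (Slc25a22, Slc25a24, Slc25a32 and Slc25a33) were higher on each of the 12 ischemic arrays than on any of the 8 arrays without ischemia, and 2 (Slc25a36 and Slc25a40) were lower. The same held for 4.43% of 19753 genes above and 4.59% below. The smallest gap was that of Slc25a32, where the highest array without ischemia read -0.53 and the lowest ischemic array -0.52. IPC+IRI and Hemin shared a scan day, and there too the ranges of Slc25a33 were apart (3.11 to 3.71 against 0.92 to 1.35), as were those of Slc25a25 (2.78 to 3.73 against 0.67 to 1.59). Those groups differ in drug and pre-conditioning as well as in ischemia, and no test was made between them.

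Falls in IRI reached carriers of amino acids, cofactors, glutathione and the UCP-like group. Slc25a40, one of the pair of mitochondrial glutathione carriers, fell from -2.80, -2.44, -2.32 and -2.25 to -3.53, -3.27, -3.23 and -3.12 (log2 fold change -0.84 ± 0.13 (SE), adjusted p = 4.1e-05). It fell in IPC+IRI as well, to -3.79, -3.61, -3.54 and -3.43 (-1.14, adjusted p = 1.7e-06), and was lower in IRI+Hemin than in IRI, at -3.98, -3.83, -3.81 and -3.64 (-0.53, adjusted p = 0.0030). Hemin arrays, at -2.58, -2.50, -2.41 and -2.34, overlapped Control (-0.01, adjusted p = 0.97). Its 4 probes include 2 that were above background on no array, and with normexp the difference in IRI was -0.08, adjusted p = 0.88. The other glutathione carrier, Slc25a39, did not pass in IRI (0.13, adjusted p = 0.45).

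Slc25a14, a UCP-like carrier, fell from -0.89, -0.87, -0.68 and -0.29 to -1.53, -1.35, -1.31 and -1.26 (log2 fold change -0.68 ± 0.13 (SE), adjusted p = 3.2e-04). In each of the other groups it stood higher than in IRI, at -0.69, -0.49, -0.47 and -0.37 in IRI+Hemin (0.86, adjusted p = 7.2e-05) and -0.60, -0.53, -0.50 and -0.16 in IPC+IRI (0.91, adjusted p = 4.6e-05). Hemin alone gave the highest values, 0.14, 0.18, 0.20 and 0.21 (0.87, adjusted p = 1.7e-04 against Control). Slc25a14 and Slc25a30 were both called in 4 comparisons, each time in opposite directions. With log2 values averaged over its probes, Slc25a14 gave -0.40, adjusted p = 0.11 in IRI and 0.35, adjusted p = 0.20 in Hemin, each against Control. Slc25a27, the third UCP-like member, was lower in IRI (-0.77, adjusted p = 0.0048) and in IPC+IRI (-0.79, adjusted p = 0.0033) than in Control. With normexp both calls were lost (-0.012, adjusted p = 0.99 and -0.36, adjusted p = 0.19).

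Slc25a15, the ornithine carrier of the urea cycle, fell from -0.36, -0.32, 0.34 and 0.55 to -0.78, -0.69, -0.59 and -0.36 (log2 fold change -0.66 ± 0.19 (SE), adjusted p = 0.0071), with a small overlap. It was lower still in IRI+Hemin, at -1.50, -1.29, -1.21 and -1.01 (-0.65, adjusted p = 0.0096 against IRI). IPC+IRI arrays read -1.07, -1.07, -0.70 and -0.55 (-0.90, adjusted p = 5.8e-04 against Control). Hemin arrays read -0.60, -0.56, -0.55 and -0.43, below every Control array (-0.59, adjusted p = 0.021), a call lost without Control replicates 3 or 4 (adjusted p from 0.075 to 0.087). Slc25a21, the oxoadipate carrier, had the same direction throughout, with -2.09, -1.64, -1.54 and -1.23 in Control, -2.60, -2.39, -2.39 and -2.24 in IRI, -3.40, -3.33, -3.07 and -2.72 in IRI+Hemin, -3.00, -2.96, -2.72 and -2.60 in IPC+IRI and -2.60, -2.54, -2.48 and -2.29 in Hemin. It was called lower in IRI (-0.78, adjusted p = 0.0010), in IPC+IRI (-1.20, adjusted p = 1.8e-05) and in Hemin (-0.86, adjusted p = 0.0012), each against Control, and in IRI+Hemin against IRI (-0.73, adjusted p = 0.0024). The call in IRI was lost with normexp (-0.17, adjusted p = 0.64) and with log2 values averaged over probes (-0.41, adjusted p = 0.16), and those in Hemin and in IRI+Hemin with that averaging (-0.51, adjusted p = 0.11 and -0.50, adjusted p = 0.10).

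Slc25a36, the second pyrimidine nucleotide carrier, moved against Slc25a33, and it too was chosen after its values were seen. It fell from -0.65, -0.59, -0.49 and -0.41 to -1.39, -1.28, -1.17 and -1.12 (log2 fold change -0.70 ± 0.11 (SE), adjusted p = 6.5e-05), and both of its probes were lower. IPC+IRI arrays read -1.18, -0.86, -0.75 and -0.71 (-0.34, adjusted p = 0.016 against Control, 0.36, adjusted p = 0.014 against IRI). IRI+Hemin arrays were at -1.09, -1.07, -1.06 and -0.94 and Hemin arrays at -0.42, -0.22, -0.17 and -0.04 (0.32, adjusted p = 0.033 against Control). The call in IPC+IRI versus Control was lost without Control replicate 3 or IPC+IRI replicate 3 (adjusted p from 0.055 to 0.071) and read 0.099 without scaling. That in Hemin versus Control was lost without Control replicates 1, 2 or 4 or Hemin replicates 1, 3 or 4 (adjusted p from 0.054 to 0.10) and read -0.01 with its brightest probe alone.

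Slc25a29, which carries basic amino acids, fell from -1.25, -1.23, -1.20 and -0.98 to -1.79, -1.68, -1.64 and -1.34 (log2 fold change -0.45 ± 0.13 (SE), adjusted p = 0.010). It was higher than IRI in IRI+Hemin, at -1.09, -1.0, -0.98 and -0.96 (0.61, adjusted p = 0.0016), and in IPC+IRI, at -1.33, -1.25, -1.04 and -0.80 (0.51, adjusted p = 0.0057). Hemin arrays reached -1.02, -0.71, -0.60 and -0.50 (0.46, adjusted p = 0.013 against Control). All 4 of these calls were lost with normexp, where the differences were -0.12, 0.17, 0.065 and 0.27 in the order given. Other falls in IRI were those of Slc25a26 (-0.44), the S-adenosylmethionine carrier, Slc25a34 (-0.75), Slc25a35 (-0.81) and Slc25a38 (-0.50), the glycine carrier of heme synthesis, together with Slc25a4. The call for Slc25a38 was lost without Control replicates 2, 3 or 4 or IRI replicates 1, 2 or 3 (adjusted p from 0.057 to 0.15). That for Slc25a34, an orphan carrier above background on 2 of 4 IRI arrays, turned to 0.076 with normexp. The difference of Slc25a34 between IPC+IRI and IRI (0.72, and -0.31 with normexp) was likewise tested through the higher group alone and is a description. Slc25a26 was higher in IRI+Hemin than in IRI (0.43, adjusted p = 0.0022) and in Hemin than in Control (0.40, adjusted p = 0.0053). With normexp in place of the processed signal, 4 falls in all were called in IRI versus Control (7.71% of all genes), and 6 rises (9.99%).

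**Figure D2:**
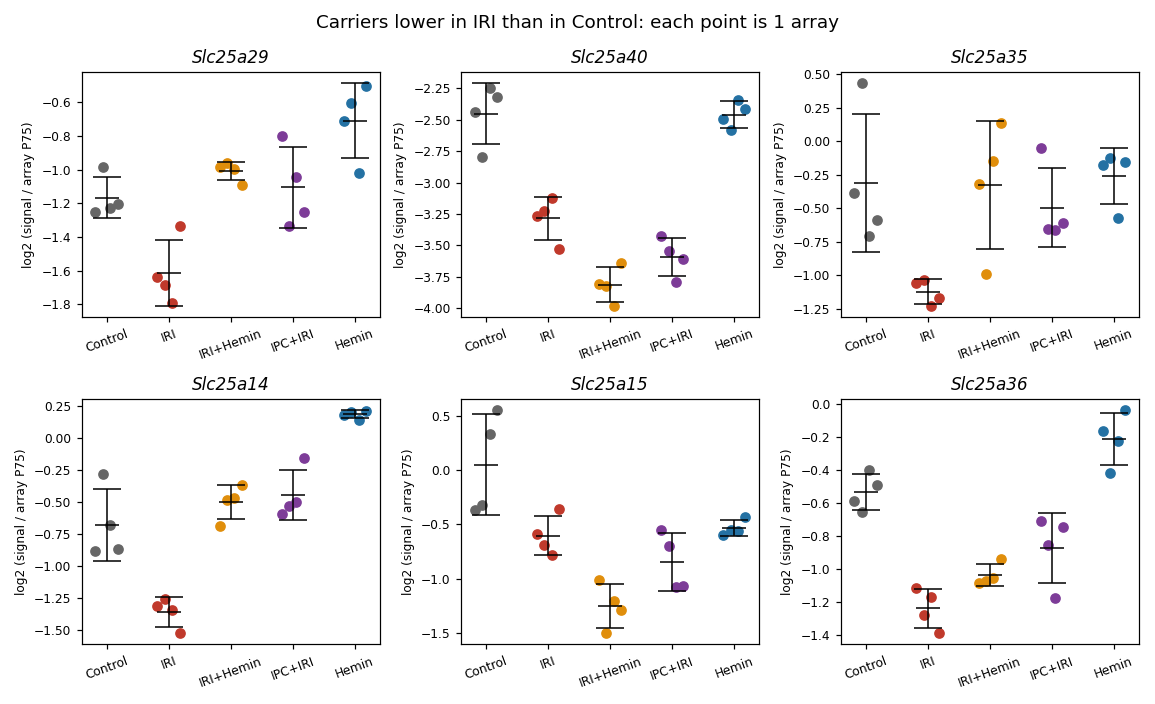
Log2 level of 6 carriers that were lower in IRI than in Control, on each array by group, with the group mean and SD (n = 4) as bars. Slc25a40 and Slc25a36 stay low on all 12 ischemic arrays, whereas the IPC+IRI and IRI+Hemin arrays of Slc25a14 lie above all IRI arrays.

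With signals averaged over probes, the carriers that serve ATP synthase differed by at most 0.37 on the log2 scale in every comparison. Slc25a4, the adenine nucleotide translocase of heart and muscle type, read 5.35, 5.54, 5.64 and 5.66 in Control and 5.12, 5.14, 5.31 and 5.32 in IRI (log2 fold change -0.33 ± 0.13 (SE), adjusted p = 0.039). That is the smallest fall called in IRI versus Control, and it was lost without Control replicates 1, 2 or 3 or IRI replicates 1 or 4 (adjusted p from 0.066 to 0.097). IPC+IRI arrays, at 5.42, 5.46, 5.51 and 5.96, were above IRI (0.37, adjusted p = 0.026), a call lost without IRI replicates 1 or 4 or IPC+IRI replicate 1 (adjusted p from 0.059 to 0.10), and IRI+Hemin arrays read 5.30, 5.44, 5.60 and 5.63 (0.27, adjusted p = 0.090). Hemin arrays lay at 5.48, 5.61, 5.75 and 5.84 (0.12, adjusted p = 0.48). Slc25a5, the widely expressed translocase, had 7.07, 7.18, 7.19 and 7.62 in Control and 7.09, 7.12, 7.33 and 7.48 in IRI (-0.01, adjusted p = 0.96, interval -0.29 to 0.27). It was called in 1 comparison, IRI+Hemin versus IRI (7.42, 7.53, 7.66 and 7.87 in IRI+Hemin, 0.37, adjusted p = 0.033), a call lost without IRI replicates 1 or 4 or IRI+Hemin replicates 2 or 4 (adjusted p from 0.066 to 0.11). IPC+IRI arrays gave 7.28, 7.29, 7.35 and 7.48 and Hemin arrays 7.16, 7.34, 7.37 and 7.49. Slc25a5 is measured by 1 probe, and its transcript has close relatives in the genome, so that cross-hybridisation cannot be told from its own signal.

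Slc25a3, the phosphate carrier, read 3.29, 3.42, 3.42 and 3.46 in Control, 3.24, 3.49, 3.51 and 3.64 in IRI and 3.52, 3.63, 3.71 and 3.91 in IPC+IRI. IPC+IRI versus Control was called (0.30, adjusted p = 0.037), a call lost without Control replicates 1, 3 or 4 or IPC+IRI replicates 1 or 4 (adjusted p from 0.059 to 0.12) and read as -0.20 from the deposited log2 values. IRI versus Control was not called (0.08, adjusted p = 0.62), but it was called with log2 values averaged over probes (0.52, adjusted p = 0.0030). The 3 probes of Slc25a3 were above background on all 20 arrays and read 0.02, 0.23 and 1.32 there, and the IRI and Control arrays of the last did not overlap. That probe read -0.94 in IPC+IRI versus IRI and -0.70 in IRI+Hemin versus IRI, again with no overlap, where the gene value read 0.22 and 0.19, neither called. IRI+Hemin arrays were at 3.49, 3.50, 3.74 and 3.93 and Hemin arrays at 3.47, 3.61, 3.61 and 3.65. In the malate-aspartate shuttle, Slc25a12, an aspartate/glutamate carrier, was called in no comparison with the main settings, with log2 fold changes from -0.19 to 0.04. The study itself lists Slc25a12 among genes raised in IRI+Hemin versus IRI, under response to metal ion. Its arrays read 1.53, 1.77, 1.79 and 1.92 in Control, 1.54, 1.81, 1.87 and 1.96 in IRI, 1.58, 1.66, 1.68 and 1.69 in IRI+Hemin, 1.41, 1.52, 1.58 and 1.89 in IPC+IRI and 1.56, 1.77, 1.79 and 1.81 in Hemin. In each of the 5 comparisons the groups overlapped in this mean over probes. Its difference in IPC+IRI versus Control was -0.15, called lower with quantile normalization (-0.31, adjusted p = 0.023) and with the percentile of probes above background on all arrays (-0.26, adjusted p = 0.047), and higher from the deposited log2 values (1.49, adjusted p = 0.048). That last value is a mean over the probes not blank on each array. It lies above each single probe of Slc25a12 in that comparison (-0.17, 0.80 and -0.83). A second probe of Slc25a12, above background on 19 of 20 arrays, did not overlap between the groups in any comparison. It read -0.86 in IRI versus Control, 0.80 in IPC+IRI versus Control, 1.66 in IPC+IRI versus IRI, 1.77 in IRI+Hemin versus IRI and 1.22 in Hemin versus Control, where the probe above background on all arrays ran from -0.22 to 0.05.

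Slc25a13, the aspartate/glutamate carrier also known as citrin, read 2.62, 2.96, 3.12 and 3.18 in Control and 3.04, 3.11, 3.21 and 3.23 in IRI (0.17, adjusted p = 0.24). It was lower than IRI in IRI+Hemin, at 2.23, 2.27, 2.40 and 2.52 (-0.79, adjusted p = 7.7e-05), and in IPC+IRI, at 2.36, 2.41, 2.51 and 2.64 (-0.66, adjusted p = 3.3e-04). IPC+IRI was also lower than Control (-0.49, adjusted p = 0.0022), and Hemin arrays read 2.59, 2.68, 2.73 and 2.90 (-0.25, adjusted p = 0.12, and -0.36, adjusted p = 0.012 without Control replicate 2). Slc25a11, the 2-oxoglutarate/malate carrier, had 4.59, 4.70, 4.80 and 5.03 in Control and 4.01, 4.50, 4.62 and 4.80 in IRI (-0.29, adjusted p = 0.11, and -0.40, adjusted p = 0.038 without IRI replicate 2). Hemin arrays were higher, at 5.38, 5.40, 5.52 and 5.55 (0.68, adjusted p = 0.0022), and IPC+IRI, at 4.87, 5.02, 5.02 and 5.29, exceeded IRI (0.57, adjusted p = 0.0055). IRI+Hemin arrays gave 4.53, 4.66, 4.76 and 4.92.

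Slc25a10, the dicarboxylate carrier, was not called in IRI, with 5.18, 5.57, 5.91 and 6.01 in Control and 5.40, 5.97, 6.10 and 6.13 in IRI (0.23, adjusted p = 0.30). IPC+IRI arrays were lower than both, at 4.67, 4.83, 4.91 and 4.97 (-0.82, adjusted p = 9.7e-04 against Control, -1.05, adjusted p = 2.2e-04 against IRI). IRI+Hemin arrays, at 5.06, 5.29, 5.39 and 5.47, were lower than IRI (-0.60, adjusted p = 0.013). Hemin arrays read 4.96, 5.17, 5.18 and 5.43, with -0.48, adjusted p = 0.046, a call lost without Control replicates 1, 3 or 4 or Hemin replicates 1, 3 or 4 (adjusted p from 0.065 to 0.15) (0.085 without scaling). Slc25a20, the carnitine/acylcarnitine carrier of fatty acid oxidation, was called in no comparison with all arrays and the main settings. Its values were 0.83, 1.07, 1.36 and 1.39 in Control and 1.35, 1.41, 1.47 and 1.91 in IRI (0.37, adjusted p = 0.055), 1.56, 1.61, 1.64 and 1.67 in IRI+Hemin, 1.21, 1.26, 1.45 and 1.70 in IPC+IRI and 1.10, 1.29, 1.54 and 1.59 in Hemin. In IRI versus Control it was called higher without Control replicates 1 or 3 or IRI replicate 2 (adjusted p from 0.035 to 0.043), and in Hemin versus Control without scaling between arrays (0.78, adjusted p = 0.025).

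The iron importers, mitoferrin 1 (Slc25a37) and mitoferrin 2 (Slc25a28), supply heme and iron-sulfur cluster synthesis. Slc25a28 read 2.16, 2.31, 2.32 and 2.34 in Control and 2.30, 2.57, 2.63 and 2.72 in IRI (0.28, adjusted p = 0.026), a call lost without Control replicate 4 or IRI replicates 2, 3 or 4 (adjusted p from 0.054 to 0.082). The Hemin arrays, at 2.66, 2.68, 2.72 and 2.76, lay above all Control arrays (0.42, adjusted p = 0.0033). IRI+Hemin arrays, at 2.84, 2.86, 3.03 and 3.07, lay above all IRI arrays (0.39, adjusted p = 0.0040), and IPC+IRI arrays, at 2.66, 2.77, 2.83 and 2.91, above Control (0.51, adjusted p = 3.1e-04). It was the one member called higher in 4 comparisons and lower in none.

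Slc25a37 was called lower in IPC+IRI and in IRI+Hemin. It read 0.88, 0.94, 0.97 and 1.00 in Control, 0.89, 1.15, 1.18 and 1.19 in IRI and 0.43, 0.44, 0.53 and 0.73 in IPC+IRI, the last being lower than Control (-0.41, adjusted p = 0.0040) and than IRI (-0.57, adjusted p = 5.8e-04). IRI+Hemin arrays gave 0.62, 0.78, 0.89 and 1.01, lower than IRI (-0.28, adjusted p = 0.048), a call lost without IRI replicates 1, 2 or 3 or IRI+Hemin replicates 1, 3 or 4 (adjusted p from 0.056 to 0.15). Hemin arrays read 0.58, 0.71, 0.74 and 0.96 (-0.20, adjusted p = 0.16). In IRI versus Control, where Slc25a37 was not called, its probes read 0.10 and 1.40. The IRI and Control arrays of the latter probe did not overlap. The probes of Slc25a37 disagreed in IPC+IRI versus Control (-0.49 and 1.11), and with log2 values averaged over probes its difference there was 0.31. Without scaling it was 0.024 there and 0.085 in IRI+Hemin versus IRI, and from the deposited log2 values 0.26 and 0.50, with 0.19 in IPC+IRI versus IRI. Slc25a39, the glutathione carrier, read 5.64, 5.80, 5.87 and 5.93 in Control and 5.73, 5.88, 6.03 and 6.12 in IRI. It was lower in Hemin, at 5.16, 5.19, 5.28 and 5.32 (-0.57, adjusted p = 0.0041), in IPC+IRI, at 5.08, 5.34, 5.45 and 5.66 (-0.43, adjusted p = 0.014 against Control, 0.0098 without scaling, lost without IPC+IRI replicate 2 (adjusted p = 0.057)), and in IRI+Hemin, at 4.97, 5.21, 5.23 and 5.59 (-0.69, adjusted p = 7.4e-04 against IRI). The calls of Slc25a39 in all 3 of these comparisons were lost with normexp (-0.43, -0.28 and -0.35) and from the deposited log2 values (-0.065, -0.21 and -0.050). Mitoferrin 1 is the form of red cell precursors. Erythroid markers, 3 of 4 listed being on the array, had a summed signal of 31.6 to 139.6 in Control, 75.9 to 97.2 in IRI, 38.2 to 154.7 in IRI+Hemin, 10.6 to 54.2 in IPC+IRI and 31.9 to 62.5 in Hemin. All 3 were called lower in IPC+IRI versus IRI, where Slc25a37 was lower too (median of the markers -1.61, sums not overlapping), and in the other comparisons 0 of 3 were called. Their part in the values of Slc25a37 was not tested.

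In IPC+IRI versus Control, 7 of 39 members were called higher (17.9%, against 23.2% of 18344 genes) and 14 lower (35.9%, against 32.6%). Arrays did not overlap in 6 and 11 members, against 17.7% and 27.4% of all genes. This comparison shares its Control arrays with IRI versus Control, and its largest rises were again those of Slc25a33, Slc25a24, Slc25a22 and Slc25a25. With the 75th percentile of probes above background on all arrays the split was 5 higher and 17 lower (all genes, 19.3% and 38.7%), and without scaling 15 and 5 (33.7% and 11.1%). Of the 4 carriers of di- and tricarboxylates and oxoacids, 0 were called higher and 3 lower. In IPC+IRI versus IRI, 9 of 38 were higher (23.7%, against 26% of 17666) and 9 lower (23.7%, against 17.7%), with 8 and 10 not overlapping (all genes, 22.2% and 15.7%). The same 4 carriers had 1 higher and 2 lower. Without scaling the calls were 14 and 4 (all genes, 32.9% and 3.31%), and the median over all genes was then 0.35 in IPC+IRI versus Control and 0.41 in IPC+IRI versus IRI. The median over members was -0.14 and -0.03, beside -0.09 and 0.09 over all genes.

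In IRI+Hemin versus IRI, 8 of 38 members were higher (21.1%, against 26.1% of 17832 genes) and 12 lower (31.6%, against 18%). Arrays were apart in 8 and 10 members (all genes, 23.4% and 15.5%), and without scaling the calls were 12 and 2 (36.3% and 3.35%). The di- and tricarboxylate group had 0 higher and 3 lower of 4. In Hemin versus Control, 6 of 39 were higher (15.4%, against 18.4% of 18573) and 9 lower (23.1%, against 17.5%), and 6 and 10 were apart (all genes, 19.5% and 18.1%). With the percentile taken over probes above background on all arrays this split became 5 and 14 (all genes, 12.4% and 23%), and without scaling 18 and 1 (47.2% and 2.57%). The di- and tricarboxylate group had 1 higher and 3 lower of 4 here. Unscaled, the median over all genes was 0.45 in IRI+Hemin versus IRI and 0.62 in Hemin versus Control. The scaled medians were -0.05 and -0.01 over members, beside 0.08 and 0.06 over all genes. In IRI+Hemin versus IRI more members were called lower than higher, while of all genes more were called higher, a difference of shares that was not tested.

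Several calls depended on the scaling or on the background correction. Without scaling, where the median of all genes is shifted as given, the named members that lost a call in the same direction were Slc25a4, Slc25a15, Slc25a21, Slc25a26, Slc25a27, Slc25a28, Slc25a29, Slc25a34, Slc25a36 and Slc25a38 in IRI versus Control (adjusted p from 0.058 to 0.46). They were Slc25a1, Slc25a10, Slc25a13, Slc25a15, Slc25a27 and Slc25a42 in IPC+IRI versus Control (0.14 to 0.88) and Slc25a1, Slc25a13, Slc25a32, Slc25a37 and Slc25a39 in IPC+IRI versus IRI (0.071 to 0.40). IRI+Hemin versus IRI lost Slc25a1, Slc25a10, Slc25a13, Slc25a15, Slc25a21, Slc25a30, Slc25a32, Slc25a39 and Slc25a40 (0.080 to 0.60), and Hemin versus Control lost Slc25a1, Slc25a15, Slc25a16, Slc25a21, Slc25a30 and Slc25a39 (0.080 to 0.98). With normexp, named members also lost calls with the sign kept. In IRI versus Control these were Slc25a14, Slc25a21, Slc25a26, Slc25a27, Slc25a28, Slc25a29, Slc25a35, Slc25a38 and Slc25a40 (0.052 to 0.99). IPC+IRI versus Control lost Slc25a13, Slc25a18, Slc25a27, Slc25a32, Slc25a36, Slc25a37, Slc25a39 and Slc25a42 (0.063 to 0.20). IPC+IRI versus IRI lost Slc25a13, Slc25a29, Slc25a35, Slc25a36 and Slc25a39 (0.085 to 0.71). IRI+Hemin versus IRI lost Slc25a5, Slc25a10, Slc25a29, Slc25a35, Slc25a37 and Slc25a39 (0.059 to 0.34). Hemin versus Control lost Slc25a1, Slc25a10, Slc25a15, Slc25a26, Slc25a29, Slc25a32, Slc25a36 and Slc25a39 (0.056 to 0.16). The calls of Slc25a33, Slc25a22 and Slc25a25 in IRI and in IPC+IRI against Control were not among the calls lost.

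**Figure D3:**
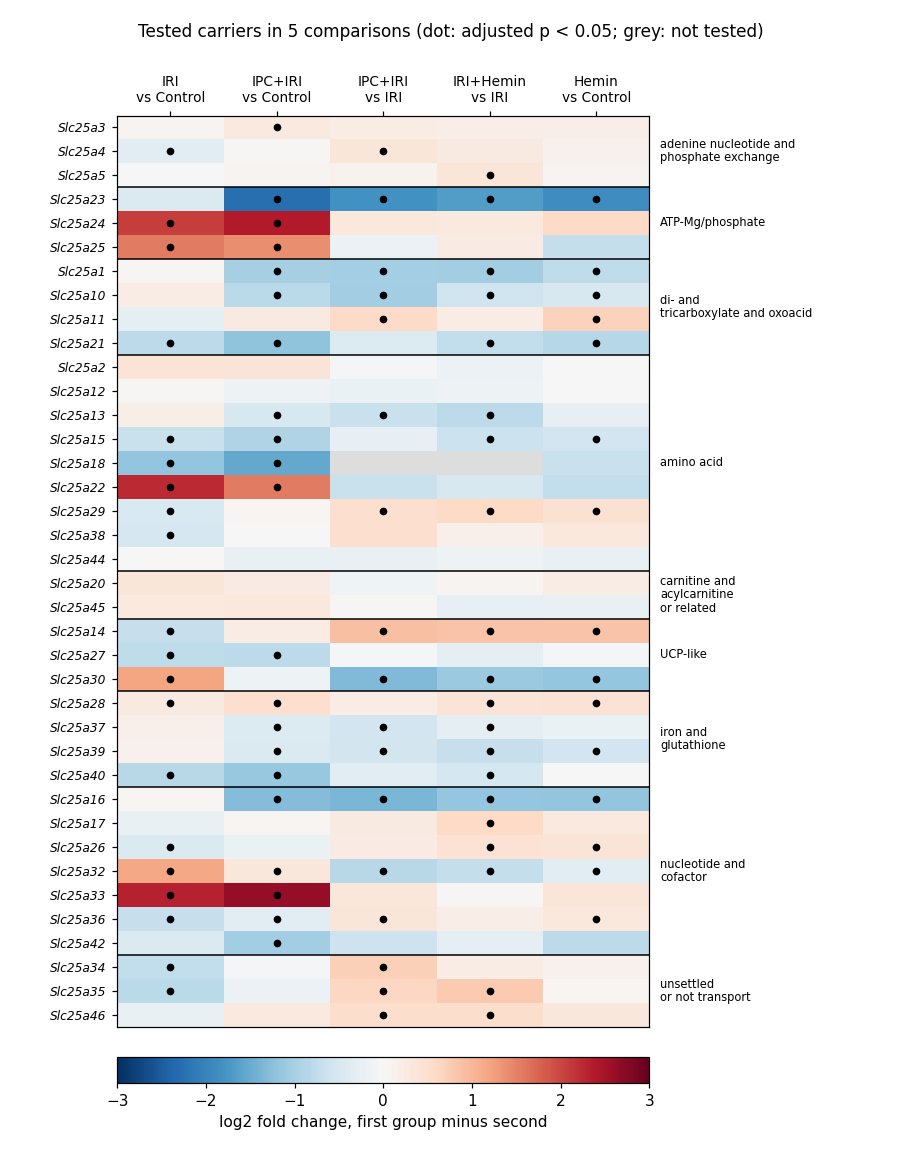
Log2 fold change of 38 tested carriers (rows, grouped by transported substrate) in the 5 comparisons (columns). A dot marks adjusted p below 0.05 and grey a comparison not tested. Slc25a22, Slc25a24, Slc25a25 and Slc25a33 are red where an ischemic group is set against Control, and Slc25a1, Slc25a16 and Slc25a23 are blue in the 4 comparisons that cross scan days and near white or pale in IRI versus Control.

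Of the falls in comparisons across scan days, the largest in each was that of Slc25a23. This ATP-Mg/phosphate carrier read -2.12, -1.29, -0.77 and -0.47 in Control and -1.85, -1.77, -1.68 and -1.08 in IRI. It read -3.52, -3.33, -3.22 and -2.99 in IRI+Hemin, -3.98, -3.39, -3.21 and -3.10 in IPC+IRI and -3.26, -3.16, -2.91 and -2.78 in Hemin. All 12 arrays of the later days thus lay below all 8 arrays of the first. The log2 fold changes were -2.26 (IPC+IRI versus Control, adjusted p = 5.4e-06), -1.82 (IPC+IRI versus IRI, 9.5e-05), -1.67 (IRI+Hemin versus IRI, 2.0e-04) and -1.86 (Hemin versus Control, 1.9e-04).

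Slc25a16, a carrier linked to coenzyme A, showed the same order. The first day gave 1.81, 2.66, 2.67 and 2.69 in Control and 2.04, 2.65, 2.67 and 2.73 in IRI. On the later days the arrays read 1.24, 1.25, 1.39 and 1.56 in IRI+Hemin, 0.84, 1.08, 1.28 and 1.42 in IPC+IRI and 1.12, 1.27, 1.29 and 1.40 in Hemin. The arrays of those 3 groups lay within 1 unit of each other. The fold changes ran from -1.16 in IRI+Hemin versus IRI (adjusted p = 1.5e-04) to -1.37 in IPC+IRI versus IRI (adjusted p = 4.2e-05), with -1.31, adjusted p = 2.5e-05 in IPC+IRI versus Control and -1.19, adjusted p = 2.9e-04 in Hemin versus Control. IRI versus Control, within the day, gave 0.07, adjusted p = 0.79.

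Slc25a1, the citrate carrier that exports carbon for fatty acid synthesis, had 2.38, 2.95, 2.98 and 3.01 in Control and 2.74, 2.83, 2.86 and 3.01 in IRI (0.03, adjusted p = 0.88). IRI+Hemin arrays gave 1.46, 1.73, 1.98 and 2.12, IPC+IRI arrays 1.75, 1.76, 1.83 and 1.98 and Hemin arrays 1.98, 2.02, 2.08 and 2.23. Again no array of a later day reached the first day. The fold changes were -0.99, -1.02, -1.04 and -0.75 in the order used for Slc25a23. Such a split by day was met in 3 members below and 0 above, and in 2.38% of 19753 genes below and 1.63% above. Scan day, slide and treatment cannot be told apart for these members.

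**Figure D4:**
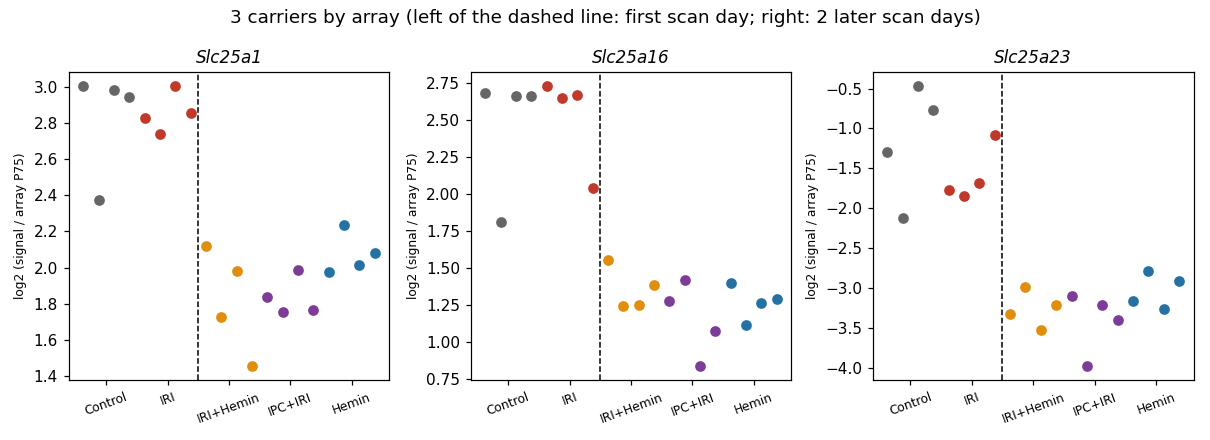
Log2 level of Slc25a1, Slc25a16 and Slc25a23 on each of the 20 arrays, by group, with a dashed line between the first scan day and the later ones. All arrays to the right of the line lie below all arrays to the left of it, and Control and IRI overlap.

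The probes of a gene share the scaling of each array and were compared with each other. For 13 members 2 or more probes were above background on all 20 arrays. Their differences had the same sign in 12 of 13 members in IRI versus Control. In the comparisons that cross scan days they agreed in 6 (IPC+IRI versus Control), 7 (IPC+IRI versus IRI), 6 (IRI+Hemin versus IRI) and 7 of 13 (Hemin versus Control). Over all 4790 genes with such probes the share was 71.1% in IRI versus Control and 55.6% to 61% in the others. Both the carriers and all genes had more agreement within the scan day than across days, given here as counts with no test. Members measured by several probes were averaged over such differences.

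Slc25a35, an orphan carrier, had the widest gap between its probes in IRI+Hemin versus IRI. In IRI versus Control both were lower (-0.28 and -1.15). In IRI+Hemin versus IRI the first differed by -0.75 and the second by 1.66 on the log2 scale, and in IPC+IRI versus IRI they moved by -0.68 and 1.45. The gene value read -0.70, -0.59, -0.39 and 0.43 in Control, -1.23, -1.17, -1.06 and -1.03 in IRI, -0.99, -0.32, -0.14 and 0.14 in IRI+Hemin, -0.66, -0.66, -0.61 and -0.05 in IPC+IRI and -0.57, -0.18, -0.16 and -0.12 in Hemin. Hence the calls of Slc25a35 as higher in IPC+IRI (0.63, adjusted p = 0.042) and in IRI+Hemin (0.79, adjusted p = 0.013) than in IRI rest on 1 of 2 probes. The first of these calls was lost without IRI replicates 1, 2, 3 or 4 or IPC+IRI replicates 1 or 4 (adjusted p from 0.054 to 0.13).

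Slc25a46, an outer membrane protein of the family that acts in mitochondrial shape, was called higher in IPC+IRI (0.53, adjusted p = 0.0046) and in IRI+Hemin (0.53, adjusted p = 0.0046) than in IRI. Its probes above background on all arrays read 0.62 and -0.96 in IPC+IRI and 0.61 and -0.82 in IRI+Hemin, each versus IRI. With log2 values averaged over probes the call in IPC+IRI was lost and the difference in IRI+Hemin was -0.11. Slc25a17, a peroxisomal carrier, was called higher in IRI+Hemin (0.60, adjusted p = 0.0043) with probes from -0.19 to 0.91. The remaining members were called seldom. Slc25a42, a coenzyme A carrier, was lower in IPC+IRI than in Control (-1.04, adjusted p = 0.0086). Slc25a2, an ornithine carrier, Slc25a44 and Slc25a45, like Slc25a12 and Slc25a20, were called in none, with log2 fold changes of -0.18 to 0.42, -0.22 to 0.00 and -0.25 to 0.31 over the 5 comparisons. Position along the transcript was examined in the 13 members and in 4271 genes with probes at least 300 bases apart. The probe nearest the 3′ end was set against the probe nearest the 5′ end, and its shift over these genes had a median of -0.06 in IRI versus Control, -0.06 in IPC+IRI versus Control, 0.03 in IPC+IRI versus IRI, -0.08 in IRI+Hemin versus IRI and 0.04 in Hemin versus Control. Over the 13 carriers the medians were -0.21, -0.08, 0.48, 0.47 and 0.35 in the same order. The 3′ probe was relatively higher in 4, 5, 8, 8 and 7 of 13 carriers, against 43.01%, 45.8%, 51.8%, 45.0% and 52.9% of these genes. By array, the all-gene median relative to the Control mean ran from -0.06 to 0.07 in Control, -0.25 to 0.03 in IRI, -0.18 to -0.15 in IRI+Hemin, -0.13 to -0.01 in IPC+IRI and -0.01 to 0.07 in Hemin. All IRI+Hemin arrays thus lay below all Control arrays, and IRI replicate 4, at -0.25, was the lowest of the 20. The part of this shift in the values of the carriers was not tested. The GC content of a probe had a Spearman's rho of -0.0028 to 0.11 with its difference over 53 member probes, a description across probes that share arrays. Over 20897 probes of all genes rho was 0.12 in IRI+Hemin versus IRI and -0.084 to -0.031 in the other comparisons.

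**Figure D5:**
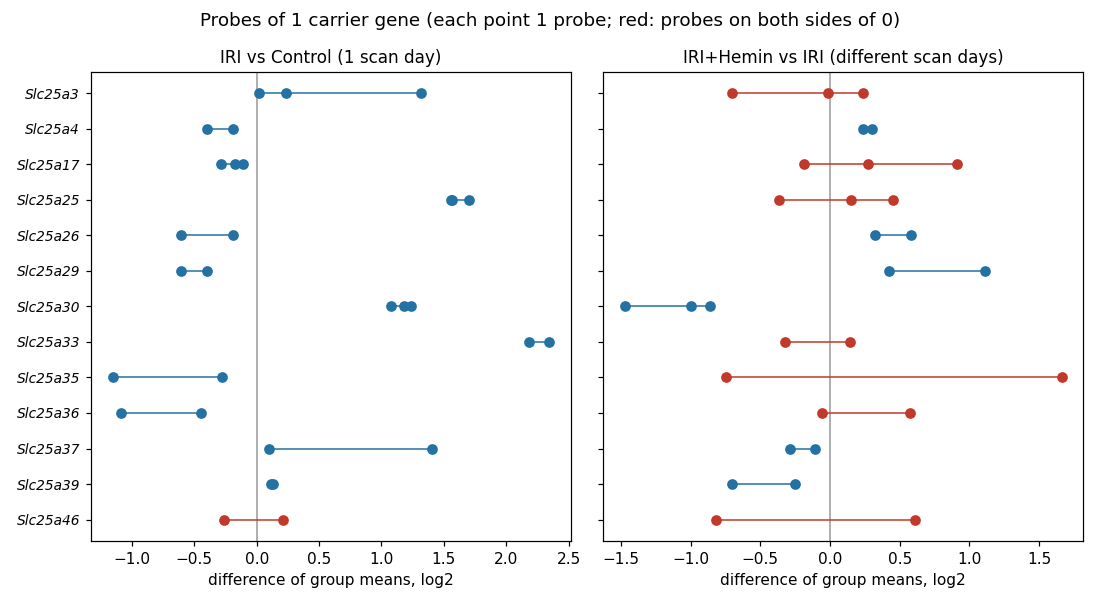
Difference of group means on the log2 scale for each probe (points) of the 13 carriers with 2 or more probes above background on all 20 arrays, in IRI versus Control (left) and IRI+Hemin versus IRI (right). Red marks members whose probes lie on both sides of 0, 1 of 13 on the left and 7 of 13 on the right.

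Other genes of mitochondrial transport, a list of 33 names with 27 on the array, were set beside the carriers. In IRI versus Control 4 of 24 tested were higher and 4 lower (median -0.03), beside 17% and 33.7% of all genes. Ucp2, an uncoupling protein and a relative of the Slc25 carriers, rose by 0.82, and Cpt1a, the entry step for long-chain acyl groups, by 0.53. Sfxn4 and Sfxn2, sideroflexins, fell by 1.05 and 0.63. In IPC+IRI versus IRI 8 of 26 were higher and 4 lower (all genes, 26% and 17.7%), Ucp2 falling by 1.36 and Sfxn2 rising by 1.28. IRI+Hemin versus IRI gave 8 higher and 7 lower of 25 (all genes, 26.1% and 18%). Hemin versus Control gave 7 and 3 of 25 (all genes, 18.4% and 17.5%). In IPC+IRI versus Control 7 were higher and 7 lower of 26 (all genes, 23.2% and 32.6%). The porins Vdac1, Vdac2 and Vdac3, channels of the outer membrane, changed by 0.07, -0.01 and -0.18 in IRI, none called, and were called higher in Hemin (0.42, 0.74 and 0.41), a comparison across scan days.

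Promoters are shown for 3 of the members that rose together and for Slc25a36, which fell. RefSeq (GRCm38.p6) starts were found for 32 of the 42 members, 6 of them with several, and the 250 bases before the start were searched on both strands for TGACGTCA (the CRE, bound by CREB factors), CACGTG (an E-box), TGACTCA (AP-1), TGATGCAA (an ATF4 element) and TCAAGGTCA (bound by ERR receptors). Capitals mark matches. For Slc25a25 the start with a match is shown, and for the others the single start listed.
Slc25a33, chr4:149774268-149774517 (- strand): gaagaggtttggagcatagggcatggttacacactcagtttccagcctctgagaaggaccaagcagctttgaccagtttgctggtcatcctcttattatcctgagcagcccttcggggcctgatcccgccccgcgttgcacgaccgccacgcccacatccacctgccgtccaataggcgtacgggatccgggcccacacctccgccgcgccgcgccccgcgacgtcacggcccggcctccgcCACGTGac
Slc25a25, chr2:32424067-32424316 (- strand): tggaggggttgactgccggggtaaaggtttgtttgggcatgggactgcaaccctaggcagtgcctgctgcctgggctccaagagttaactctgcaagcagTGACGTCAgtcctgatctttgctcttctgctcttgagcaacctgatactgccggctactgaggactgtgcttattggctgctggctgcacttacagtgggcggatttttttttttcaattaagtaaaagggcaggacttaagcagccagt
Slc25a24, chr3:109122899-109123148 (+ strand): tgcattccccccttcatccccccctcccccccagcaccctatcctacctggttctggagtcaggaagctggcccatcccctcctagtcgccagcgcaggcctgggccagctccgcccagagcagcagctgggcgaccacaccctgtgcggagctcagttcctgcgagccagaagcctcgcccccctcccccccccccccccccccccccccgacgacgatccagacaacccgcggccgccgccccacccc
Slc25a36, chr9:97111042-97111291 (- strand): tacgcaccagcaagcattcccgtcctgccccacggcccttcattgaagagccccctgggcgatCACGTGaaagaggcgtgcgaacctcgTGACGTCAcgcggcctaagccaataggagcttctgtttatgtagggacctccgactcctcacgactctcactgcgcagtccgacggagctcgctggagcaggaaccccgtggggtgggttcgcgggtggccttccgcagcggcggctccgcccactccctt
The CRE letters were found upstream of Slc25a25, 150 bases before 1 of its 3 starts, and of Slc25a36, which fell in IRI. They occur in 1.55% of 32851 promoters. E-box letters lay 8 bases before the start of Slc25a33 and also before Slc25a1, Slc25a13, Slc25a14, Slc25a15, Slc25a31 and Slc25a36, or 7 of 32 members. By promoter this is 8 of 41 (19.5%, against 6.02% of all promoters), but 2 of the 8 are overlapping windows of Slc25a14 that hold the same site. Of these, Slc25a33 was higher in IRI and Slc25a14, Slc25a15 and Slc25a36 were lower. The median GC content was 57.2% in member promoters and 52.4% in all, and its part in the E-box share was not tested. AP-1 letters were met before Slc25a13 alone (4.46% of all promoters), and the ATF4 and ERR letters before none (0.791% and 0.387% of all). The promoter of Slc25a24 and those of Slc25a22 and Slc25a30, held none of the 5 motifs.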

How the data were processed

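Total RNA of whole kidney (integrity number of at least 8 by the study's methods) was hybridised in a single colour to 20 Agilent mouse arrays, 4 for each of 5 groups, and grouped by the GEO labels. Per the labels and file headers, the authors scanned them and extracted signals with Agilent Feature Extraction 9.5.3.1. The deposited intensity used here is the processed signal, already background-subtracted. The authors also deposited a table of log2 processed signals with 18.1% of values blank, used as an alternative. For a gene its log2 values were averaged over the probes not blank on each array. Each array's signals were divided by their 75th percentile, spots of a probe and then probes of a gene name were averaged, and log2 was taken (R 4.3.3). A gene entered a comparison with at most 1 of 8 values missing and at least 3 of 4 arrays well above background in either group. Group means were fitted over 20 arrays (limma 3.58.1, 15 residual degrees of freedom), with Benjamini-Hochberg adjustment of p-values over all genes tested. The steps were tested on simulated data. Nothing in the labels says that the 4 arrays of a group were separate animals, so p-values measure the spread between these samples. The number of arrays limits the precision.

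Values on every array are given for the 3 largest rises and the 3 largest falls of each comparison among called members that were above background on all 8 arrays and did not overlap between groups, and for 16 members with textbook roles. Other members are given by counts, or singled out after their values were seen where so stated. A few genes are not reported here. The members and lists were chosen with earlier results of these data known. Alternatives were the background correction (normexp, offset 50), scaling, probe averaging, dim-gene filter, arrays fitted, replicate block, fold cutoff and each array left out. Probe positions come from the array annotation (mm9), and promoters from RefSeq (GRCm38.p6).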

Additional observations from a re-analysis of the deposited data

Results flagged for a closer look

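Single arrays stood apart from the other 3 of their group by Dixon's ratio in 11 of 185 groups of 4 above background, where chance gives about 1 in 20. Control replicate 2 did so for 2 members, with Slc25a1 at 2.38 (the other 3 at 2.95 to 3.01) and Slc25a16 at 1.81 (the other 3 at 2.66 to 2.69). IRI replicate 4 was low for Slc25a16, at 2.04 (the other 3 at 2.65 to 2.73), and for Slc25a37, at 0.89 (the other 3 at 1.15 to 1.19). IPC+IRI replicate 1 read -1.17 (the other 3 at -0.15 to -0.08) for Slc25a24 and -0.051 (the other 3 at -0.66 to -0.61) for Slc25a35. In Hemin, replicate 3 was low for Slc25a12, at 1.56 (the other 3 at 1.77 to 1.81), and for Slc25a35, at -0.57 (the other 3 at -0.18 to -0.12), and replicate 4 was high for Slc25a18, at -4.04 (the other 3 at -4.22 to -4.20). In IRI+Hemin, replicate 2 gave 0.24 (the other 3 at 0.34 to 0.35) for Slc25a26 and replicate 1 gave 1.93 (the other 3 at 1.37 to 1.38) for Slc25a45.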

How the results depend on the processing

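Over all members and comparisons with 1 choice changed at a time, 3136 results kept their direction and side of the threshold, 164 changed sign without being called in either setting, 118 passed the threshold anew, 200 no longer passed and 18 changed sign where a call was made in 1 of the settings.

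Without scaling between arrays, 5 members were called lower in IRI versus Control, 15 higher and 5 lower in IPC+IRI versus Control, 14 higher and 4 lower in IPC+IRI versus IRI, 2 lower in IRI+Hemin versus IRI, and 18 higher and 1 lower in Hemin versus Control. With normexp, calls of lower members were 4 in IRI versus Control, 7 in IPC+IRI versus Control and 4 in Hemin versus Control. From the deposited log2 values they were 8 in IPC+IRI versus Control, 7 in IRI+Hemin versus IRI and 5 in Hemin versus Control. Averaging log2 values over probes left 5 higher in IRI+Hemin versus IRI, and the percentile of probes above background on all arrays gave 14 lower in Hemin versus Control. With the study's fold cutoffs, calls were 3 higher and 1 lower in IRI versus Control, 2 and 6 in IPC+IRI versus Control, 0 and 1 in IPC+IRI versus IRI, and 0 and 1 in Hemin versus Control (limma, where the main counts were 9 and 9 and 6 and 9 at the same adjusted p); IRI+Hemin versus IRI has no stated cutoff. The causes were not tested.

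With each array dropped in turn (leave-one-out), counts ran from 6 to 8 for higher and 12 to 14 for lower members in IRI versus Control, 6 to 9 and 13 to 15 in IPC+IRI versus Control, 7 to 12 and 9 to 10 in IPC+IRI versus IRI, 7 to 9 and 11 to 12 in IRI+Hemin versus IRI, and 5 to 8 and 6 to 12 in Hemin versus Control.

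Among these 18, the sign changed in IRI versus Control with normexp (Slc25a18 to 0.018, Slc25a34 to 0.076). In IPC+IRI versus Control it changed from the deposited values (Slc25a3 to -0.20, Slc25a12 to 1.49, Slc25a37 to 0.26), without scaling (Slc25a36 to 0.099, Slc25a37 to 0.024, Slc25a39 to 0.0098) and with log2 averaging (Slc25a37 to 0.31). In IPC+IRI versus IRI it changed for Slc25a34 with normexp (-0.31) and Slc25a37 from the deposited values (0.19). In IRI+Hemin versus IRI it changed for Slc25a37 without scaling (0.085) and from the deposited values (0.50), and for Slc25a46 with log2 averaging (-0.11). In Hemin versus Control it changed without scaling for Slc25a10 (0.085), Slc25a12 (0.55) and Slc25a32 (0.26), and for Slc25a36 with its brightest probe (-0.010).

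Replicate numbers did not pair the samples. Same-numbered arrays deviated together with a median correlation of -0.02 over 40 pairs, and arrays of different number with -0.0014 over 120. With the replicate block the calls were 7 higher and 12 lower in IRI versus Control, 7 and 14 in IPC+IRI versus Control, 8 and 9 in IPC+IRI versus IRI, 8 and 11 in IRI+Hemin versus IRI, and 6 and 9 in Hemin versus Control. Slide as a random block could not be fitted, since each slide holds 1 group. Between groups on different slides no fit separates slide from treatment.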
